A study of Mus musculus with 2 samples.

Results

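The 39 genes examined here encode proteins of the contractile apparatus of skeletal and cardiac muscle, together with the smooth muscle isoforms Acta2 and Myh11 and the muscle intermediate filament gene Des. They were taken by symbol from the 32285 genes of the deposited feature lists, and all 39 were found. Expression was measured by single-cell RNA-seq in eYFP-sorted cells of mouse embryos at E13.5, from the upper body above the liver (the tissue is given as pharyngeal arch). The control library came from Isl1-Cre;R26R-eYFP embryos, in which Cre made under the Isl1 promoter switches on eYFP in the descendants of Isl1-expressing cells, among them the cardiopharyngeal mesoderm that gives rise to heart and branchial muscle. The mutant library came from Isl1-Cre;R26R-eYFP;Pik3caH1047R embryos, which carry the same alleles and in addition a Cre-dependent allele of Pik3caH1047R, an activated form of the catalytic subunit of PI3-kinase. Each library was 1 pool of 3 embryos, so there is no replicate of a genotype and no test between genotypes. All intervals below are 95% intervals of counting error and cover neither the spread between cells nor that between embryos.

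After the filters on genes and mitochondrial RNA, 2783 control and 3489 mutant cells remained, with medians of 20412 and 16839 UMIs (unique molecules) per cell. The libraries shared 28 barcodes as deposited and 12 after filtering. They also differed in sex, since 95.5% of control but 33.6% of mutant cells were female-like, with Xist and no Y-linked UMI. Cells were clustered without the 39 genes and without 42 further contractile genes, and clusters were named from markers that contain none of them. The heart cluster raised 15 of 18 heart markers and held 54 control cells (1.94%, 1.46 to 2.52) and 181 mutant cells (5.19%, 4.48 to 5.98). Branchial muscle held 888 and 844 cells in 3 stages. The Pax7 and Myf5 clusters (618 and 659 cells) raised 8 or 9 of 20 muscle markers, the Myog cluster (127 and 85 cells) raised 13, and the Mymk cluster of fusing muscle cells (143 and 100 cells) raised 14. Smooth muscle, led by Myh11, Actg2 and Myocd, raised 9 of 19 markers and held only 38 and 25 cells.

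In the sarcomere, thick filaments of myosin slide along thin filaments of actin, and troponin and tropomyosin on the thin filament make this depend on calcium. Titin spans from the Z-disc to the M-band and keeps the thick filament centred. Most of these proteins come in isoforms from separate genes, and embryonic heart and skeletal muscle use overlapping sets before each settles on its own, while atrial and ventricular heart muscle also differ in their myosin light chains.

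Together the 39 genes gave 10.9% of all UMIs in heart cells of both libraries. In branchial muscle they gave 0.439% (control) and 0.38% (mutant) of the UMIs of Pax7 and Myf5 cells, 1.48% and 1.43% in Myog cells, and 4.11% and 4.82% in Mymk cells. In smooth muscle they gave 0.904% and 1.32%. In the other named classes it lay between 0.0468%, in control neural crest, and 0.471%, in mutant mesothelium. The named classes were ranked by level, without the 207 control and 208 mutant cells of unnamed clusters. In both libraries 20 of the 39 genes had their highest level in heart, 14 in Mymk cells and 2 (Acta2 and Myh11) in smooth muscle. The highest class differed between the libraries for Mybpc1, Myom1 and Unc45b.

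**Figure D1:**
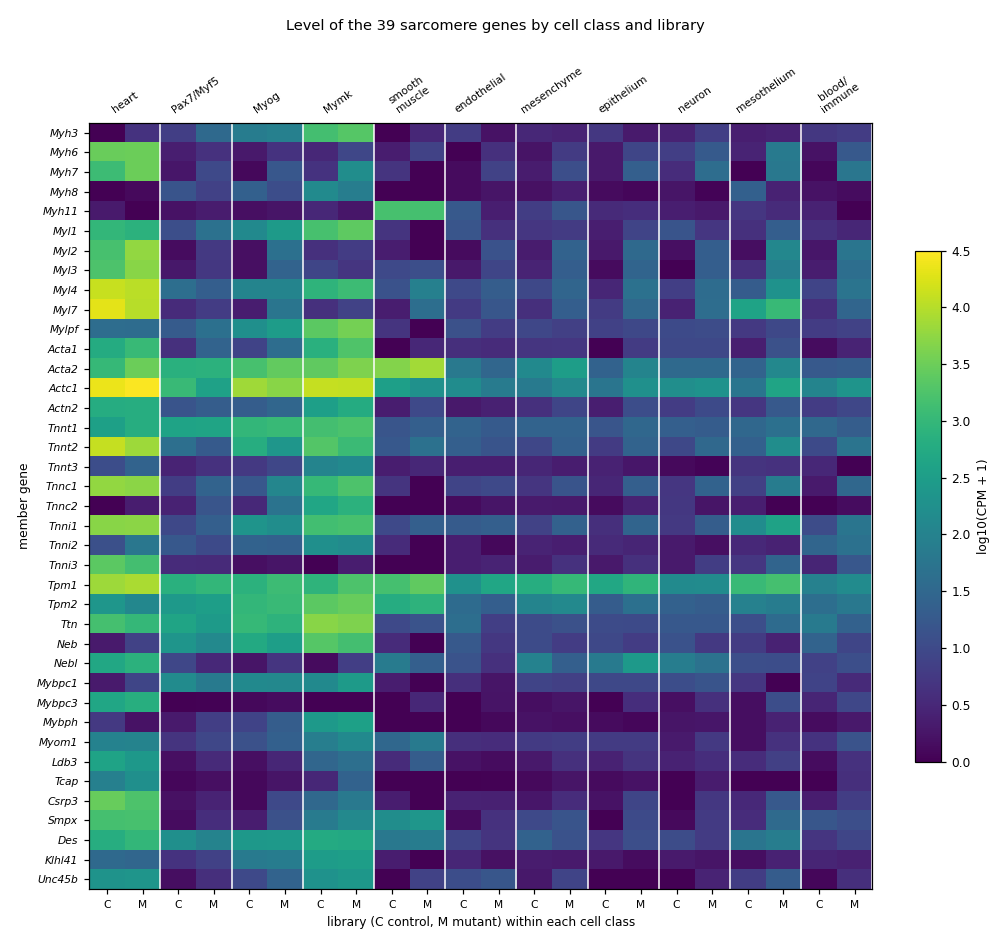
Level of each of the 39 genes (rows, in order of their role) in 11 cell classes, control (C) and mutant (M) side by side, as log10 of CPM + 1. Heart cells and Mymk cells carry the bright blocks, Actc1 is bright in both, and Acta2 and Myh11 stand out in smooth muscle.

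The sequence just before the start is shown for 4 genes, of which 3 share a motif: Myl7 and Actc1 were the most abundant members in control heart, Actc1 and Acta1 are striated actins that differed in opposite directions between the libraries in the earliest branchial cells, and Tnnt2 was lower in the mutant at every branchial stage. Each sequence is the 250 bases before the RefSeq start in GRCm38.p6, 5′ to 3′ on the gene's strand. Capitals mark the CArG box, the motif of serum response factor, and in Acta1 also TATAAA. Myl2 and Acta2 are not shown, since their RefSeq entries start far from the start of the principal annotated transcript. For the genes shown that distance was 0 bases (Myl7), 12 (Actc1), 24 (Acta1) and 20 (Tnnt2). The Actc1 window lies inside the annotated gene, which reaches to chr2:114053548.
Myl7 (chr11:5898783-5899032, minus strand): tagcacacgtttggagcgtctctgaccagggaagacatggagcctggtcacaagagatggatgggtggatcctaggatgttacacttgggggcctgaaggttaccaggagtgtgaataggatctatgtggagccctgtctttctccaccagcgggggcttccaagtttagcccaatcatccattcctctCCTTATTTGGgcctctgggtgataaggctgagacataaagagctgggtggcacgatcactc
Actc1 (chr2:114052876-114053125, minus strand): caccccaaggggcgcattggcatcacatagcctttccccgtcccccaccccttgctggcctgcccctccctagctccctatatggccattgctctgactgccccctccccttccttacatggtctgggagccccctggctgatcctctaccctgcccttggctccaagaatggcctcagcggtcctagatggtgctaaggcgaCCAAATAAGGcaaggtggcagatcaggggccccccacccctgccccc
Acta1 (chr8:123894776-123895025, minus strand): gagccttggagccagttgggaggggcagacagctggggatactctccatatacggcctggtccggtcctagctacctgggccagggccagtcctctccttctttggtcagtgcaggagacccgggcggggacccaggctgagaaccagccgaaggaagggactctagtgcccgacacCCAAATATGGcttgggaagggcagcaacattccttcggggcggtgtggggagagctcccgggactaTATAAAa
Tnnt2 (chr1:135836084-135836333, plus strand): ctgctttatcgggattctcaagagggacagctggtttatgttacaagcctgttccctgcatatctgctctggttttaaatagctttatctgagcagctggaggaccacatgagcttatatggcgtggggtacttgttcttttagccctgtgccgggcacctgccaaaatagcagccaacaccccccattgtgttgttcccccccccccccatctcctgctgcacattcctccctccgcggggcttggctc
The CArG box starts 61 bases before the start of Myl7, 47 before Actc1 and 73 before Acta1, and the 250 bases of Tnnt2 hold none. Of the 34 members in the RefSeq promoter table, 7 had a CArG box on either strand in the whole window (Acta1, Actc1, Ldb3, Myl3, Myl7, Myom1 and Nebl), against 1.62% of the 27025 genes and 1.47% of the 32851 promoters listed. A MEF2 site was found in Klhl41, Mybpc3, Myh8 and Ttn and in 3.42% of all genes (2.92% of promoters). TATAAA was found in Acta1, Myh3 and Tnnt1 and in 8.94% of all genes (7.59% of promoters). The E-box CANNTG, a short motif held by 69.3% of all genes (66.2% of promoters), was found in 30 of the 34. These are matches of letters and say nothing of binding.

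Levels are given as CPM, the UMIs of a gene per 1000000 UMIs of the class. A molecule is counted once from its 5′ end, so CPM are not divided by gene length. Among the heavy chains, Myh6 (the alpha cardiac chain) was at 2981 CPM in control and 3114 in mutant heart cells. Myh7 (the beta cardiac chain, which is also that of slow skeletal muscle) was at 1238 and 3082 there. The embryonic skeletal chain Myh3 was found mainly in Mymk cells, at 1448 and 2054 CPM. The perinatal chain Myh8 reached only 139 and 81.1 CPM there. The smooth muscle chain Myh11 was at 1551 and 1489 CPM in smooth muscle and at 17.3 CPM or less in the second highest named class. In a mural cluster of a finer clustering, described below, it was at 142 and 21.2 CPM. Myh6 and Myh7 are near-identical in places, and 10% and 7.71% of the 100-base stretches of their transcripts are shared. Reads from such stretches cannot be assigned. Where the stretches lie relative to the counted 5′ ends was not examined, so the share of reads affected is not known.

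The light chains differed between the muscles. In heart, Myl7 (the atrial regulatory chain) was at 20300 and 10233 CPM, Myl4 (the atrial and embryonic alkali chain) at 13128 and 10604, Myl2 (the ventricular regulatory chain) at 1562 and 5997, and Myl3 (the ventricular alkali chain) at 1741 and 5003. In Mymk cells the regulatory chain was Mylpf, at 2351 and 3574 CPM, which made 99.7% of their regulatory chain UMIs in both libraries. Their alkali chains were Myl1, at 1532 and 2402 CPM, and Myl4, at 861 and 1195. Myl1 was also found in heart, at 954 and 792 CPM.

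Among the actins, Actc1 was the most abundant of all 39 genes in heart (23228 and 29619 CPM) and in Mymk cells (12679 and 12401). Skeletal Acta1 was less abundant than Actc1 and Acta2 in both, with 583 and 1067 CPM in heart and 705 and 1800 in Mymk cells. Acta2, the smooth muscle actin, was at 4631 and 7515 CPM in smooth muscle, but also at 2491 and 4222 in Mymk cells and 1047 and 3064 in heart. The tropomyosin Tpm1 led in heart (6832 and 8492 CPM). Tpm2 led in control and mutant Mymk cells, at 2360 and 2861 CPM against 840 and 1740 of Tpm1.

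The troponin of heart was Tnnt2 (12670 and 6830 CPM), Tnnc1 (5886 and 5314) and Tnni1, the slow form (4930 and 5132), with the cardiac Tnni3 at 2280 and 1456. Mymk cells used the same Tnnc1 (1037 and 1745) and Tnni1 (1363 and 1550), and shared their troponin T between Tnnt2 (1965 and 1163) and slow Tnnt1 (1447 and 1711). The fast forms were low even there: Tnnc2 was at 460 and 779 CPM, Tnni2 at 175 and 145, and Tnnt3 at 108 and 134. Fast troponin I, Tnni2, was also counted in blood and immune cells at 28.7 and 47.6 CPM, with a UMI in 32.4% and 33.5% of those cells.

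Of the long and scaffolding proteins, titin (Ttn) was at 5083 and 4312 CPM and nebulin (Neb) at 2043 and 1445 in Mymk cells. Heart had Ttn at 1513 and 1006, no more than 6.7 CPM of Neb, and instead Nebl, its shorter relative, at 492 and 764. The myosin-binding proteins went with their names: cardiac Mybpc3 was at 460 and 665 CPM in heart and at no more than 0.397 CPM in any branchial stage, Mybph was at 266 and 364 in Mymk cells, and slow Mybpc1 was at 134 and 280 in Mymk cells and at 150 and 69.6 in Pax7 and Myf5 cells. The Z-disc and M-band genes were highest in heart or shared. Csrp3 (2829 and 1754), Smpx (1481 and 1580), Actn2 (604 and 633), Des (643 and 954), Ldb3 (401 and 249) and Tcap (90.1 and 174) had their highest level in heart. Klhl41 was highest in Mymk cells (301 and 332), and Myom1 (99.3 and 102 in heart, 84.8 and 134 in Mymk cells) and the myosin chaperone Unc45b (201 and 223, 199 and 242) were near-equal in the 2 classes.

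Between classes, a gene was counted as higher when the interval of the ratio lay beyond 2-fold in both libraries. A list's count is read against the share of all genes that the rule called. By that rule 24 of the 39 genes were higher in heart than in branchial muscle as a whole (5.26% of the 13525 genes compared) and 8 were higher in branchial muscle (7.82%): Myh3, Myh8, Mylpf, Tnnc2, Tpm2, Neb, Mybpc1 and Mybph. Most branchial cells were of the Pax7 and Myf5 stage (618 of 888 and 659 of 844), where these genes were low. Of the 24, Myl1 (954 and 792 CPM in heart, 1532 and 2402 in Mymk cells) was lower in heart than in Mymk cells. So was Acta1 (583 and 1067, 705 and 1800), and Myom1 and Unc45b were near-equal. Actn2 (604 and 633 CPM in heart, 345 and 585 in Mymk cells) and Des (643 and 954, 565 and 513) were less than 2-fold higher in heart. In the control the same held for Actc1, at 23228 CPM in heart and 12679 in Mymk cells. Against smooth muscle, 27 of 31 were higher in heart (4.19% of all genes) and 3 were higher in smooth muscle (11.5%): Myh11, Acta2 and Tpm2. Branchial over smooth muscle gave 17 of 36 (1.51% of all genes), and the reverse gave Myh11, Acta2, Nebl and Smpx (4.74%). Within branchial muscle, 27 of 35 were higher in Mymk than in Pax7 and Myf5 cells (5.09%) and 0 were lower (5.89%). Clusters are groups of like cells, so these counts describe them and test nothing.

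Between the genotypes, a gene was counted as higher or lower in the mutant when its interval lay wholly beyond 1.5-fold. Of 34 genes with at least 20 UMIs in heart, 8 were higher (1.76% of the 9639 genes compared) and 4 lower (4.65%). The 8 were Myl2, Myl3, Myh7, Acta2, Acta1, Tnnt1, Tcap and Tnni2, and the 4 were Myl7, Tnnt2, Csrp3 and Tpm2. Myl2 had a log2 ratio of 1.94 (1.86 to 2.02), Acta2 of 1.55 (1.45 to 1.65), Myl3 of 1.52 (1.45 to 1.60) and Myh7 of 1.32 (1.22 to 1.41). Acta1 (0.87), Tnnt1 (0.79, from 365 to 630 CPM) and Tcap (0.95) followed, and Tnni2 went from 11.5 to 60.6 CPM. The lower genes were Myl7 (-0.99, -1.01 to -0.96), Tnnt2 (-0.89, -0.92 to -0.86), Csrp3 (-0.69) and Tpm2 (-0.90, from 227 to 122 CPM). Most other abundant genes lay within 1.5-fold, among them Actc1 (0.35), Tpm1 (0.31), Myl4 (-0.31), Tnnc1 (-0.15), Tnni1 (0.06), Myh6 (0.06) and Smpx (0.09). The median over the 34 genes was 0.12, beside -0.06 over all genes compared.

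In isoform terms, Myl2 made 7.13% of the regulatory light chain UMIs of control heart and 36.9% of those of mutant heart. Myl3 made 11% and 30.5% of the alkali chains, and Myh7 29.3% and 49.7% of the heavy chains. Acta2 made 4.21% and 9.08% of the actin UMIs. Cardiac Tnni3 went the other way, from 31.6% to 21.9% of troponin I.

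These shifts moved together with the chamber makeup of the cells. Cells with a UMI of Nr2f1 or Nr2f2, transcription factors of the atria, and none of Irx4 or Hey2, which mark the ventricles, were 38 of 54 in the control (70.4%, 56.4 to 82) and 35 of 181 in the mutant (19.3%, 13.9 to 25.9). Cells of the opposite kind were 5 of 54 (9.26%) and 103 of 181 (56.9%). Cells with UMIs of both kinds were 3 and 7, and cells with neither were 8 and 36. The light chains shifted in the same direction, with more Myl2 than Myl7 in 11 control cells (20.4%) and 107 mutant cells (59.1%). These 2 splits did not match cell by cell. For example, 1 atrial-type control cell had Myl2 at 52.5 and Myl7 at 6.15 per 10000 UMIs, and 1 ventricular-type mutant cell had 67 and 205. Myl2 had a median of 0 UMIs per 10000 over control heart cells and 73.5 over mutant ones, and Myl7 a median of 229 and 56.2, with wide overlap of the single cells. The atrial hormone Nppa was at 4513 and 692 CPM. With pools of dissected embryos, fewer cells of a chamber cannot be told apart from a change in the chamber, since how much atrium and ventricle entered each pool is not known.

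**Figure D2:**
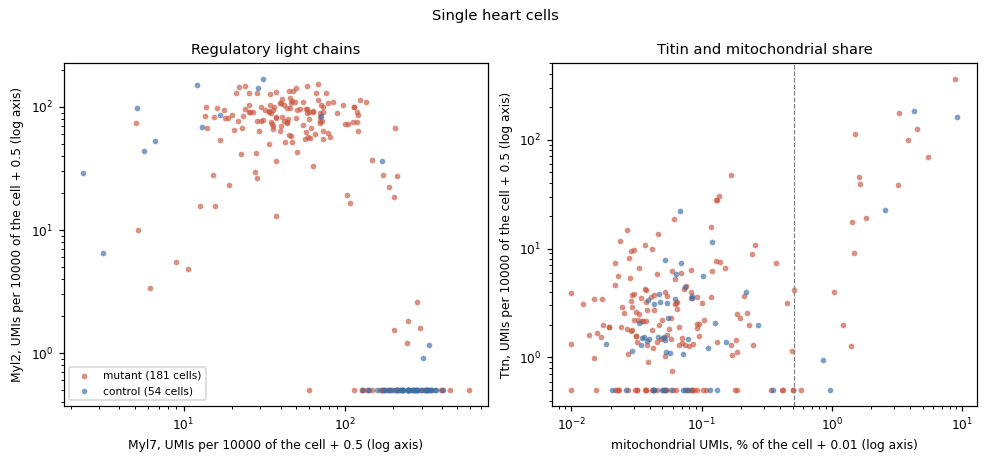
Each point is 1 heart cell (54 control, 181 mutant); left, Myl2 against Myl7, and right, Ttn against the percent of mitochondrial UMIs, all on log axes with levels per 10000 UMIs of the cell and the 0.5% split dashed. Most control cells lie at the lower right of the left panel (Myl7 without Myl2), most mutant cells hold both, and high Ttn levels are found mainly right of the split.

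Within the atrial-type cells alone, Myl7 (24535 and 22818 CPM, -0.10), Csrp3 (-0.03), Tpm2 (-0.05) and Tnnt1 (-0.17) did not differ beyond 1.5-fold. Of 32 genes, 9 were still higher (1.9%) and 1 was lower (0.985%). Acta2 went from 936 to 2945 CPM (1.65, 1.52 to 1.79), Acta1 from 571 to 1437 (1.33), Myl3 from 568 to 1706 (1.59), Myh7 from 104 to 423 (2.03), Myh6 from 3480 to 5787 (0.73) and Ttn from 351 to 891 (1.34). The 3 mutant cells with the most Ttn held 66.1% of its UMIs there and had 1.61% to 5.43% mitochondrial UMIs, and 94.7% of control but 77.1% of mutant atrial-type cells had under 0.5%. Myl2 (1.03) was also higher, although 1 cell held 98.5% of its control UMIs, and Tnnt3 and Tnni2 were not beyond 1.5-fold without their highest cells. Tnnt2 went from 13574 to 7290 (-0.90, -0.95 to -0.85), so that this difference was as large as in all heart cells. In the ventricular-type cells the control had only 5 cells, and 1 of them held 99.2% of their Ttn and 61.1% of their Myh7 UMIs. Of 31 genes, 6 were higher there (0.61%) and 1, Ttn, was lower (5.61%). Myl2 (8664 and 8118 CPM, -0.09), Myl3 (-0.25) and Myh7 (-0.11) lay within 1.5-fold, Myl7 was higher in the mutant (1.19, 0.95 to 1.43), as were Myl4 (0.84) and Acta2 (1.38), and Tnnt2 was within 1.5-fold (-0.26). In the control, the highest cell for each gene held 58.4% of the Myl7, 53.9% of the Myl4 and 63.4% of the Acta2 UMIs of these cells.

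The heart cells also stood apart in their mitochondrial and nuclear RNA. Mitochondrial UMIs were under 0.5% in 49 of 54 control and 164 of 181 mutant heart cells, against 54 of 2729 and 134 of 3308 cells of all other classes, and the medians were 0.0502% and 0.0481%. The nuclear RNA Malat1 had medians of 1.17 and 2.38 per 10000 UMIs, beside 13 to 86 in the other classes listed with it. Xist had a UMI in 11 of 54 control heart cells but in 2668 of 2729 other control cells (97.8%). Titin moved with this split: it was at 212 and 296 CPM in the heart cells under 0.5% and at 7506 and 7149 in the 5 control and 17 mutant cells at or above it, higher than in Mymk cells (5083 and 4312). In the control, the 2 highest cells held 80.8% of all heart Ttn UMIs, and 1 cell held 39% of the Myh7 UMIs. Myl7 was at 23558 and 10268 CPM under the split and at 5284 and 9936 above it. What sets these cells apart was not tested.

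The genotype ratios depended on that split for some genes. Under 0.5%, 5 of 33 genes were higher (2.01%) and 6 lower (3.25%), and the differences in Myl2 (2.20), Myl3 (1.84), Myh7 (2.55), Acta2 (1.59), Tnnt2 (14263 and 7116 CPM) and Myl7 (-1.20) kept their direction. At or above it, 9 of 28 were higher (2.57%) and 0 lower (3.09%), with Myl7 at 0.91, Myh7 at -0.20, Myl3 at -0.07 and Tnnt2 at -0.29, and Acta2 at 1.07 (0.82 to 1.32). The interval of Acta2 lay wholly beyond 1.5-fold in all 4 subsets of heart cells, and that of Acta1 (1.33, 0.98, 0.69 and 2.59) in the atrial-type cells and the cells at or above 0.5%. The 4 subsets overlap, since chamber type and mitochondrial share split the same cells. The ventricular-type cells and the cells at or above 0.5% included only 5 control cells each.

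**Figure D3:**
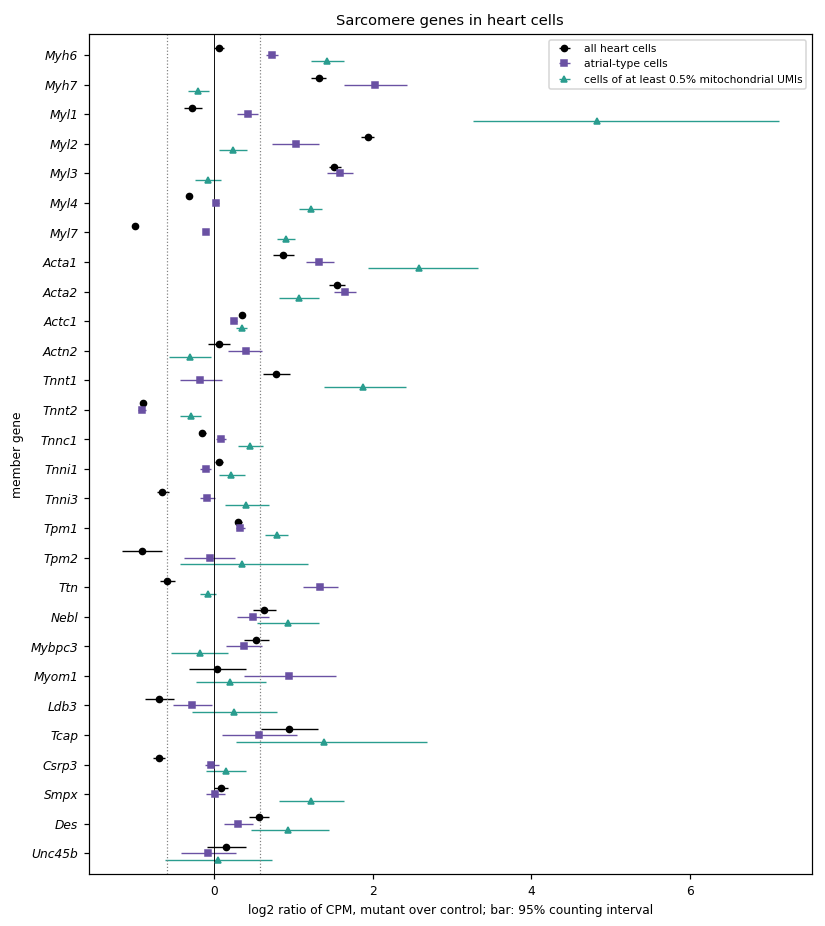
Log2 ratio of mutant over control for the members of at least 100 CPM, in all heart cells (circles), atrial-type cells (squares) and cells of at least 0.5% mitochondrial UMIs (triangles), with 95% counting intervals and dotted lines at 1.5-fold. Acta2 lies right of the dotted line for all 3 symbols, while Myl7 lies left of it only for all heart cells.

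In branchial muscle as a whole, 12 of 38 genes were higher in the mutant (7.68% of 15696 genes) and 3 lower (3.95%). Among the 12 were Myh6, Myl2, Myl3 and Myl7, at 3.94, 9.81, 7.21 and 11.9 CPM in the mutant, which are heart-restricted genes at levels no higher than in mutant mesenchyme, described below. A single mutant cell held 54.7% of the Myl2, 44% of the Myl3 and 56% of the Myl7 UMIs. The share of Mymk cells was lower in the mutant (2.87% of all cells against 5.14%), so each stage was also compared by itself. Pax7 and Myf5 cells gave 15 higher and 8 lower of 37 (6.82% and 3.61% of all genes), Myog cells 14 and 2 of 32 (4.21% and 1.9%), and Mymk cells 11 and 1 of 35 (5.57% and 3.59%). A single mutant Myog cell of 35918 UMIs was the highest cell for 12 of the 32 genes with at least 20 UMIs there. They included Myh7, Myl2, Myl3, Myl4, Myl7, Csrp3 and Smpx. For the 8 heart-restricted genes together, the highest mutant Myog cell held 87.2% of the UMIs. No count of higher genes without such a cell is given.

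Cardiac troponin T was the gene lower at every stage. Tnnt2 went from 43.8 to 17.5 CPM in Pax7 and Myf5 cells (-1.33, -1.54 to -1.12), from 648 to 232 in Myog cells (-1.48, -1.61 to -1.35) and from 1965 to 1163 in Mymk cells (-0.76, -0.82 to -0.69). The share of cells with a UMI of it was lower as well, at 31.1% and 17%, 96.1% and 75.3%, and 98.6% and 90%. Since Tnnt1 was near-equal (0.07, 0.13 and 0.24), Tnnt2 made 39.9% of the troponin T UMIs of control Myog cells and 17.8% of those of mutant ones. Nebulin was lower beyond 1.5-fold at the first and the second stage (225 and 129 CPM, -0.80, then 541 and 326, -0.73) but not in Mymk cells (2043 and 1445, -0.50). Titin had the same sign, with no interval wholly beyond 1.5-fold (-0.60, -0.35 and -0.24).

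The actins differed from each other. Actc1 went from 1102 to 377 CPM in Pax7 and Myf5 cells (-1.55, -1.59 to -1.50), was not beyond 1.5-fold in Myog cells (7078 and 4991, -0.50) and was near-equal in Mymk cells (12679 and 12401, -0.03). Acta2 did the reverse, with 712 and 768 CPM (0.11), 1551 and 2624 (0.76, 0.71 to 0.81) and 2491 and 4222 (0.76, 0.72 to 0.81). Acta2 made 39.2% of the actin UMIs of control and 65.6% of those of mutant Pax7 and Myf5 cells, and 18% and 34.3% in Myog cells. Acta1 was higher at each stage, at 3.04, 2.52 and 1.35, although at the Pax7 and Myf5 stage 1 mutant cell held 70.3% of its UMIs and without the highest cell of each library the ratio was 1.41.

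The 11 genes higher in mutant Mymk cells were Acta1 (705 to 1800 CPM), Tpm1 (840 to 1740, 1.05), Mybpc1 (134 to 280, 1.07), Tnnc1 (0.75), Tnnc2 (0.76), Actn2 (0.76), Acta2, Myl1 (0.65), Csrp3 (1.00), Tcap and Myh7. Myh7 had the largest ratio, with 3.62 CPM in the control and 157 in the mutant (5.44, 4.54 to 6.51). It was counted in 4 of 143 control cells (2.8%) and in 41 of 100 mutant cells (41%), with 18.3% of the UMIs in the highest cell. That level is 5.09% (4.58 to 5.65) of the level in mutant heart cells. In mutant Pax7 and Myf5 cells Myh7 was at 0.292% of heart and in Myog cells at 0.503%, within the 0.222% to 1.88% of mutant endothelium, mesenchyme, epithelium, neurons and blood. Its ratio in Myog cells rests on 1 and 39 UMIs, and 1 cell held 69.2% of the latter. In mutant Mymk cells Csrp3 was at 3.65% of its heart level, and the other 6 heart-restricted genes described below lay between 0% and 0.255%. Tcap, the titin cap of the Z-disc, went from 2.17 to 25.1 CPM, in 4 and 12 cells. The embryonic chain Myh3 (0.50), Mylpf (0.60, 0.56 to 0.65), Klhl41 (0.14) and Unc45b (0.28) did not lie wholly beyond 1.5-fold. The median UMI count per Mymk cell also differed, at 13640 and 20682.5, and so did the mitochondrial share, at 3.64% and 1.59%. Their part in these ratios was not tested.

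Among the 15 genes higher in mutant Pax7 and Myf5 cells were Myh3 (5.87 to 32.9 CPM), Myl1 (11 to 46.8) and Tnnc1 (5.63 to 26.1 CPM). A single mutant cell of 67083 UMIs, 3502 of them from the 39 genes, was the highest cell for 19 of the 36 with at least 20 UMIs there and held 58.5% of the Mylpf and 48.9% of the Myh3 UMIs. Without the highest cells Mylpf was near-equal (0.13), while Myh3 (1.64), Myl1 (1.53) and Tnnc1 (1.86) stayed beyond 1.5-fold. Slow Mybpc1 was lower there (150 to 69.6 CPM, -1.11), in contrast to Mymk cells, as were Des (170 to 103, -0.72), Myl4 (-0.93), Myh8 (-1.12) and Nebl (7.91 to 2.3). The cells of this stage came from clusters of 245, 216 and 157 control and 370, 170 and 119 mutant cells. Mybpc1 was among the leading genes of the last of these clusters. The part of this makeup in the ratios was not tested. At resolution 1.2, 105 of the 659 mutant cells of this stage formed a cluster with 0 control cells. Without them, chosen after seeing the data, Actc1 was at -1.47, Tnnt2 at -1.29, Mybpc1 at -1.11, Neb at -0.81 and Acta1 at 3.14, while Des (-0.66) and Myom1 (1.01) were no longer wholly beyond 1.5-fold and Myh6 (1.40) now was. In the Myog cluster 1 mutant cell held 94.6% of the Myl2, 92.5% of the Myl3 and 92.9% of the Myl7 UMIs, so the high ratios of these heart genes there (5.44 to 6.43) rest on that cell.

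**Figure D4:**
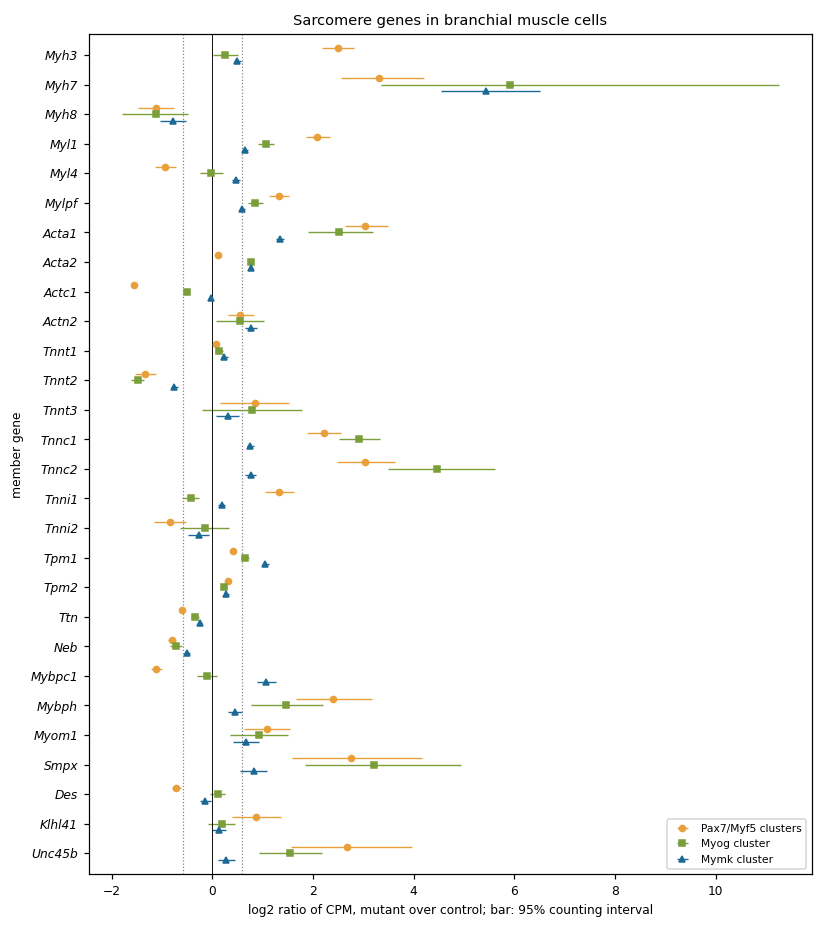
Log2 ratio of mutant over control at the 3 stages of branchial muscle for the members of at least 100 CPM at 1 stage or more, with 95% counting intervals and dotted lines at 1.5-fold. Tnnt2 lies left of the dotted line at all 3 stages, and Acta1 lies right of it at all 3.

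In smooth muscle the counts were small, and 13 genes could be compared, of which 4 were higher (2.04%) and 1 lower (1.27%). Acta2 was at 4631 and 7515 CPM (0.70, 0.63 to 0.77) and Tpm1 at 1485 and 2472 (0.74, 0.62 to 0.86), while Myh11 was near-equal (1551 and 1489, -0.06). Nebl went from 74.2 to 22.1 CPM (-1.75), with 34.5% and 40% of its UMIs in 1 cell, and was not wholly beyond 1.5-fold without these cells. Myl4 (12.8 to 90.6) and Myl7 (1.28 to 42) were counted in 10 and 5 of the 25 mutant cells. Myl7 was at 0.41% of its heart level in mutant smooth muscle (0.247 to 0.64), and 1 cell held 47.4% of these UMIs. In mutant endothelium, mesenchyme, epithelium, neurons and blood Myl7 was at 0.145% to 0.384%. A finer clustering split off a further mural cluster with Rgs5 and Tagln, of 15 and 54 cells, and there Acta2 was near-equal (2670 and 2326, -0.20), and Tpm1 too (-0.17). Of 15 genes compared there, Tnnt2 (29.1 to 103 CPM), Tnni1 (48.5 to 182), Actc1 (45.3 to 143) and Myl7 (3.24 to 43.3) were higher in its mutant cells (2.79% of all genes higher, 2.5% lower), and Myh11 was lower (142 to 21.2). In mutant heart cells the 4 higher genes were at 6830, 5132, 29619 and 10233 CPM. The part of heart message in these mural counts was not tested. Without the highest cell of each library Actc1 (1.43) was not wholly beyond 1.5-fold.

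Outside muscle, 8 genes served to measure heart message in other cells, chosen on the data because each was at 400 CPM or more in heart of both libraries and, in the control library, over 30-fold lower in every branchial stage and in smooth muscle: Myh6, Myh7, Myl2, Myl3, Myl7, Tnni3, Mybpc3 and Csrp3. Their summed level in control epithelium, neurons, endothelium, mesenchyme and blood was 0.0284% to 0.0371% of that in control heart cells. In the mutant the same classes were at 0.158% to 0.737%. Thinned to 5000 UMIs, 3.7% to 8.06% of the control cells of these classes and 13% to 17% of the mutant ones had such a UMI. The rise was not the same in every class. Neural crest was at 0.0225% in the control and 0.121% in the mutant, on 7 and 16 UMIs. Mutant hepatoblasts (47 cells, with 0 in the control) were at 0.0339%, on 20 UMIs, within the range of the control classes. Gene by gene, the level relative to heart ranged from 0.0931% to 0.222% in mutant endothelium, 0.125% to 0.43% in mesenchyme, 0.225% to 0.703% in epithelium, 0.251% to 1.28% in neurons and 0.278% to 1.88% in blood. Single cells took a large part, since 1 mutant epithelial cell held 54.1% and 1 blood cell 38.9% of these UMIs of their class. Barcodes of 2000 genes or fewer held them at 1690 and 3424 summed CPM, which is 5.06% and 10.9% of heart.

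Mesothelium was the exception for Myl7 and Tnni1. Myl7 was at 400 CPM in control mesothelium, 1.97% of heart (1.84 to 2.11), while the other 7 genes lay between 0% and 0.185%. In the mutant it was at 1070 CPM and 10.5%, beside 0.984% to 2.16% for the other 7. A Myl7 UMI was found in 74.3% and 75.8% of these cells. Tnni1 was at 151 and 383 CPM, also above the other classes outside muscle.

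**Figure D5:**
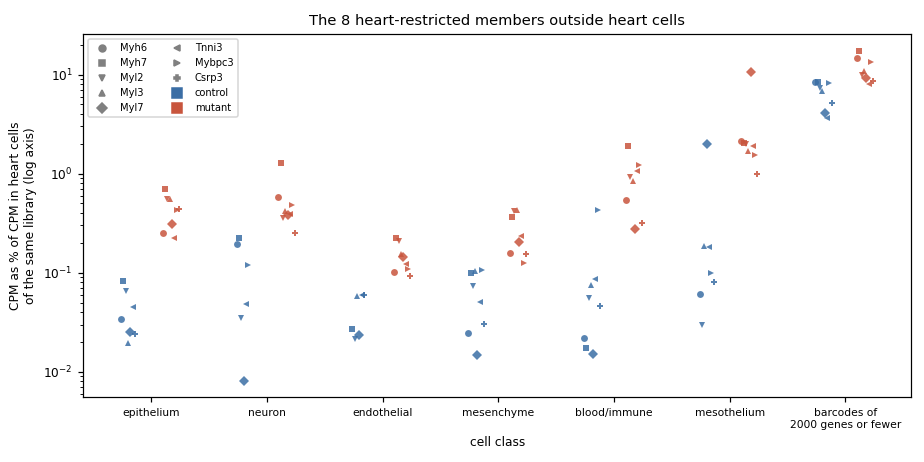
Level of the 8 heart-restricted genes in cells outside heart, as percent of their level in heart cells of the same library (log axis, 1 symbol per gene, genes with no UMI left out). For every gene the mutant point lies above the control point in the 5 classes at the left, and Myl7 stands alone in mesothelium at 1.97% and 10.5%.

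Nebl and Tpm1 were also counted outside muscle. Nebl was at 99.4 CPM in control mesenchyme and 273 in mutant epithelium, and Tpm1 at 1126 and 1493 in mesothelium. The 47 mutant hepatoblasts held genes that were high in Mymk cells. Mylpf was at 115 CPM there (a UMI in 27.7% of cells), Myh3 at 51 (25.5%), Myl1 at 71.7 and Actc1 at 328. The source of these UMIs was not tested.

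The other contractile genes, a list of 42 chosen with earlier results of these data known, were set beside these. In heart 33 could be compared, of which 1 was higher (1.76% of all genes) and 6 lower (4.65%). The largest differences among those of at least 100 CPM were in Sln, the atrial regulator of the calcium pump (854 to 38.6 CPM, -4.47), the creatine kinase Ckm (518 to 48.5, -3.42) and the calcium channel Cacna1c (238 to 107, -1.15), and on the other side Tpm4 (45 to 115, 1.35), with Smyd1 (0.65) and Tpm3 (0.59) not wholly beyond 1.5-fold. In branchial muscle 3 of 39 were higher (7.68%) and 3 lower (3.95%). Among those of at least 100 CPM the largest differences were in Myl9 (44.5 to 127 CPM, 1.52) and in filamin C, Flnc (133 to 73.9, -0.85). Myl9 is a light chain of smooth muscle and non-muscle myosin. Actn1 (0.29) and Tpm4 (0.18) came next above in that set and were not beyond 1.5-fold. The others called were below 100 CPM. Of these, Casq2 (16.6 to 34.7, 1.06) and Lmod2 (0.171 to 0.869, 2.34) were higher. Cryab (92 to 36.7, -1.33) and Actn3 (41.8 to 22.6, -0.89) were lower.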

How the data were processed

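Single-cell 5' libraries of 1 control and 1 mutant pool were deposited by the authors as UMI counts per gene and barcode. The submitters' processing notes name Cell Ranger 7.1.0 and mm10. The 39 members and the other lists were chosen with earlier results of these data known. Cells with 2001 to 8999 genes and under 10% mitochondrial UMIs were kept. Seurat 5.3.0 (R 4.3.3) integrated the libraries on 2000 variable genes, with cell cycle regressed, 30 components, 20 neighbours and resolution 0.8, after the 39 members and 42 other contractile genes were left out (60 of them were among the variable genes). Clusters were named from listed markers, so names and shares are rebuilt here and may differ from the study's. Some clusters were set to unnamed by a list, whatever their markers. At resolution 0.8 these included clusters of 65 cells (led by Cga and Six6) and 47 cells (led by Oc90 and Tectb). Clusters of the same sizes and leading genes were named epithelium at resolution 1.2, with 6 of 11 markers raised. Scrublet (scanpy 1.11.5) called 0 and 1 doublets, which is too few to have worked, so doublets were kept, and an alternative left out the highest-scoring 73 and 123 filtered cells.

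UMIs were summed by class and library with pandas 2.3.3 and scipy 1.17.1 under Python 3.11.15. Ratios carry exact conditional binomial 95% intervals, for genes with at least 20 UMIs over both libraries. All members are named with levels, and ratios are given for those of at least 100 CPM beyond 1.5-fold and for the most abundant of each role, others being named after their values were seen. Of the other contractile genes, the 3 largest differences each way are given among those of at least 100 CPM. Shares have exact binomial intervals. Thinning was to 5000 UMIs per cell. TMM factors came from edgeR 4.0.16 for an alternative scaling only. Columns mapped to no sample numbered 0. The scripts were tested on simulated data. Promoters come from RefSeq, GRCm38.p6.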

Additional observations from a re-analysis of the deposited data

Results flagged for a closer look

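Barcodes with few genes enter no comparison of the classes, yet they held the 8 heart-restricted genes at 1690 CPM in the control and 3424 CPM in the mutant. In the control 8 and in the mutant 29 of these barcodes held 50% of those UMIs.

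Some members had log2 ratios of mutant over control beyond 1.5-fold in opposite directions in separate classes. With 1 library per genotype the difference was not tested. Myl4 was at 2.82 in smooth muscle and -0.93 in Pax7 and Myf5 cells. Myl7 was at 5.04 in smooth muscle, on 1 and 19 UMIs, and -0.99 in heart. Mybpc1 was at 1.07 in Mymk cells and -1.11 in Pax7 and Myf5 cells. Csrp3 was at 5.09 in Myog cells, on 1 and 22 UMIs, and 1.00 in Mymk cells, beside -0.69 in heart. In mutant Myog cells 1 cell held a large part of the Csrp3 UMIs. The heart ratios changed with the cells used and the processing, from -1.2 to 1.19 for Myl7 and from -0.82 to 0.16 for Csrp3.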

How the results depend on the processing

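No paired analysis was possible because each genotype has 1 library, and leaving out a replicate was not possible for the same reason. The splits of heart cells by chamber type and mitochondrial share, the branchial stages, the cells of the mutant-only cluster, the mural cluster and the removal of the highest cell of each gene were chosen after seeing the data. The cause of the shifts below was not tested.

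In heart, 8 members were higher and 5 under female-like cells alone (11 and 11 cells), G1 cells alone or cells under 0.5% mitochondrial UMIs. The 4 lower became 2 with TMM scaling, which shifts all heart ratios by 0.17, 1 in female-like, atrial-type or ventricular-type cells, and 0 in cells of at least 0.5% mitochondrial UMIs. In branchial muscle the 12 higher became 19 with classes from marker counts, 6 with the mean over cells and 4 when thinned, and the 3 lower became 5 (mean over cells, thinned), 1 (G1 cells, Mymk cells), 8 (Pax7 and Myf5 cells) and 7 (these without the mutant-only cells). The branchial median of 0.50 became 0.47 without integration, 0.69 with marker counts, 0.48 without high-scoring doublets or with TMM, 0.58 at a 5% mitochondrial limit, 0.26 with the mean over cells, 0.19 when thinned, 0.70 in G1 or Myog cells, 0.89 in Pax7 and Myf5 cells, 0.94 in these without the mutant-only cells, 0.57 in Mymk cells and 0.44 without the highest cells. In smooth muscle the 4 higher became 10 (marker counts), 1 (mean over cells, female-like), 0 (thinned) and 2 (at least 100 UMIs), and the 1 lower became 2 (resolution 1.2, marker counts, mean over cells) or 0 (female-like, G1, at least 100 UMIs, without the highest cells). No smooth muscle class formed at resolution 0.3 or without integration.

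The epithelial level of the heart-restricted genes was 0.0439% of heart in female-like control cells. In the mutant it was 0.387% at resolution 0.3, 0.39% at 1.2, 0.394% without integration, 0.0848% without high-scoring doublets, 0.239% with the mean over cells, 0.233% when thinned, 0.09% in female-like and 0.0778% in G1 cells.

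Some ratios changed sign. In heart, female-like cells gave -0.42 for Myh7, 0.01 for Myl7, -0.35 for Tnnt1 and -0.17 for Tcap. That setting needs an Xist UMI, so in heart it also selects on the mitochondrial split. In the control, 5 of 5 heart cells at or above 0.5% had one, against 6 of 49 under it. In the mutant these were 7 of 17 and 7 of 164. Sex and this split were not separated. Ventricular-type cells gave -0.11 for Myh7, -0.09 for Myl2, -0.25 for Myl3, 1.19 for Myl7 and -0.14 for Tnnt1, and atrial-type cells gave -0.17 for Tnnt1. Cells of at least 0.5% mitochondrial UMIs gave -0.20 for Myh7, -0.07 for Myl3, 0.91 for Myl7, 0.35 for Tpm2 and 0.16 for Csrp3. In branchial muscle Myl3 was at -0.94 in Mymk cells. In smooth muscle Acta2 was at -0.08 at resolution 1.2, -0.32 in female-like cells (37 and 2 cells) and -0.20 in the mural cluster, where Tpm1 was at -0.17. Of the 12 called members in heart 4 never changed sign, of 15 in branchial muscle 14, and of 5 in smooth muscle 3.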
